A study of Homo sapiens with 28 samples.

Results

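The zinc finger gene clusters of human chromosome 19 were examined for H3K4me3, the histone mark of active and poised promoters, in human embryonic stem cells sorted by phase of the cell cycle. The regions described are merged H3K4me3 peaks of 4 sorted fractions that lay in 6 stretches of chromosome 19 (hg19). Cluster 1 runs from 11700000 to 12700000, cluster 2 from 19700000 to 24100000, cluster 3 from 36500000 to 38300000, cluster 4 from 44300000 to 45000000, cluster 5 from 52300000 to 53900000 and cluster 6 from 56500000 to 58900000. These bounds held 338 of the 32239 merged H3K4me3 regions of the genome, and the rest of chromosome 19 held 1810. No region straddled a bound. Members were selected on the presence of an H3K4me3 peak in at least 1 fraction, and the bounds were drawn with earlier results of these data known, so H3K4me3 values are given as a description.

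The cells were a Fucci human embryonic stem cell line, which carries fluorescent proteins that follow the cell cycle. It was grown without serum or feeder cells in a defined medium with heregulin, activin A, LongR3 IGF-1 and FGF2, and all fractions shared that medium. Flow sorting gave cells of early G1 (labelled DN), late G1 (KO2), S phase (AzL) and G2/M (AzH). Each fraction had 1 ChIP library for H3K4me3, H3K27ac, H3K27me3 and H3K4me1, and 1 4C library from each of 2 viewpoints, beside the GATA6 and SOX17 promoters. With 1 library per mark and fraction there is no replicate check, no test between fractions was possible, and intervals cover counting error only. A difference between fractions and a difference between libraries cannot be told apart.

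Tandem duplication built these clusters, and many of their genes encode Krüppel-associated box (KRAB) zinc finger proteins. Such proteins bind DNA, many of them within transposable elements, and through the KRAB domain they recruit the corepressor TRIM28 and the H3K9 methyltransferase SETDB1. H3K27ac marks active promoters and enhancers, H3K27me3 marks chromatin repressed by Polycomb, and H3K4me1 marks enhancers. H3K4me3 together with H3K27me3 at a promoter is called bivalent and is typical of developmental genes in stem cells.

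The peak positions are hg19, and no annotation of that build was used, so no member is tied to a gene here. To show what promoters of such a cluster look like, sequences were taken by gene name from RefSeq (GRCh38.p14). That table held 1451 protein-coding genes of chromosome 19, of which 264 had a zinc finger symbol. The longest unbroken run of such symbols held 27 genes, with ZNF737 and ZNF681 at its ends, and 21 of them had a promoter sequence. The 250 bases before the start of 3 genes of that run, all of the KRAB zinc finger class, are printed here as examples of such promoters. On GRCh38.p14 the printed stretch of ZNF91 lies at chr19:23395472-23395721 on the minus strand, ZNF43 at chr19:21836183-21836432 on the minus strand and ZNF431 at chr19:21141790-21142039 on the plus strand. Capitals mark CCAAT, the box bound by NF-Y, and CTTCCGG, a core read by ETS-family factors.
ZNF91: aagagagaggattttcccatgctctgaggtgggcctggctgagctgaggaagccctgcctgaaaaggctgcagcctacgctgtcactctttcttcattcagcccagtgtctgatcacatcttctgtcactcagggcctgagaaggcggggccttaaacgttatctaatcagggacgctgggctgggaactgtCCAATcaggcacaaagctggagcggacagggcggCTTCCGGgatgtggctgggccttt
ZNF43: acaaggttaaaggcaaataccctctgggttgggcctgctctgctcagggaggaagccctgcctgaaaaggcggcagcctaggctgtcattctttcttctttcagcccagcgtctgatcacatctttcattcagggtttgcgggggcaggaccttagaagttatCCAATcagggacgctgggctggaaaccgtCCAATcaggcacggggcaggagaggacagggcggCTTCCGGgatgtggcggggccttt
ZNF431: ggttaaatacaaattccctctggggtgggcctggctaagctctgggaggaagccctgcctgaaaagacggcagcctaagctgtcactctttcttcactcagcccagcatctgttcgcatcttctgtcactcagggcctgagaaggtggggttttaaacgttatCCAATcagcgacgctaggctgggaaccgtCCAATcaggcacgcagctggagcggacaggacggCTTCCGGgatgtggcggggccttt
Pairwise, ZNF91 and ZNF43 were identical at 80.6% of aligned bases, ZNF91 and ZNF431 at 83.8%, and ZNF43 and ZNF431 at 82.7%. All 3 carry CTTCCGG at the same distance from the start, with CCAAT upstream of it. Both motifs were searched on both strands in 300-base windows, 250 bases before and 50 after the start, and they shared a base in 0 promoters. CCAAT stood in 21 of the 21 promoters of the run (100%, 95% interval 83.9 to 100) and CTTCCGG in 18 (85.7%, 63.7 to 96.95). Among all 228 zinc finger promoters of chromosome 19, CCAAT stood in 52.6%, CTTCCGG in 44.3% and both in 26.3%. Among the 957 other promoters of chromosome 19, the shares were 37.1% for CCAAT, 12.9% for CTTCCGG and 4.28% for both, and over all 15843 promoters they were 36.4%, 14.2% and 4.89%. The run's promoters held a median of 10 CpG dinucleotides, against 20 in all 228 zinc finger promoters and 21 in the other promoters of chromosome 19. The motifs were chosen after the sequences were read, and a match is a description of letters, not of binding. The 3 printed promoters are among the 21, and the 21 are among the 228. The intervals treat promoters as independent, although the 3 printed ones were identical at 80.6% to 83.8% of aligned bases.

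Most H3K4me3 regions of the clusters were listed in every fraction. Of the 338 members, 216 were listed in all 4 fractions (63.9%, 95% interval 58.5 to 69.03), against 894 of 1810 regions in the rest of chromosome 19 (49.4%, 47.1 to 51.7). With the top 50% of each list by score, the shares were 67.3% and 63.8%, and with peaks of at least 500 bp they were 68.4% and 67.2%. In early and late G1, S phase and G2/M, 265, 240, 263 and 276 members were listed. Regions listed in 1 fraction alone made up 25.1% of members, against 33.3% of the rest. Neighbouring members listed in all fractions stood a median of 32.2 kb apart (quartiles 18.8 and 53.7), against 22.3 kb in the rest of the chromosome. Late G1 was the fraction from which a member was most often the only absence. Missing from late G1 alone were 13 members (3.85%, 95% interval 2.06 to 6.49), and from early G1 alone 2 (0.592%, 0.0717 to 2.12). In the rest of chromosome 19 the corresponding counts were 44 (2.43%) and 67 (3.70%). Over chromosomes 1 to 21 outside the clusters the shares were 2.76% and 3.10%. The members' interval for late G1 held both comparison shares, while that for early G1 lay below both.

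The clusters differed in how densely they were marked. Clusters 1 to 6 held 32, 59, 76, 28, 61 and 82 members, or 32, 13.4, 42.2, 40.0, 38.1 and 34.2 per Mb. Cluster 2 was thus the sparsest, and 46 of its 59 members were listed in all 4 fractions. Cluster 3 was the densest when every member was counted, and 39 of its 76 members were listed in all fractions. Counting those listed in all fractions alone, clusters 1 to 6 held 17, 10.5, 21.7, 28.6, 23.8 and 23.3 per Mb, with cluster 4 the densest. Regions listed in G2/M alone made up 9.47% of members, near the 9.34% of the rest of chromosome 19. Over chromosomes 1 to 21 outside the clusters the share was 10.8%. Of the 32 members listed in G2/M alone, 23 lay in cluster 3. The 200 kb bin from 36600001 to 36800000 held 16 of these, with a median length of 187.5 bp, among 32 members in all. That bin was picked after its values were seen, as the one with the most members listed in G2/M alone.

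In early G1 the members carried taller H3K4me3 peaks than the rest of the chromosome. The height is the signal value deposited for each peak, on a scale that the sources used here do not give. Heights were therefore divided by the library's median over all regions of chromosomes 1 to 21 listed in all 4 fractions, which gives a relative height of 1 at that median. Members listed in a fraction had median relative heights of 1.25, 0.773, 0.802 and 0.735 in early and late G1, S phase and G2/M, against 0.617, 0.712, 0.528 and 0.592 for the rest of chromosome 19. The ratio of these medians was 2.03 in early G1, 1.09 in late G1, 1.52 in S phase and 1.24 in G2/M. The median of the rest was exceeded by 73.2% of members in early G1 (95% interval 67.4 to 78.4), 54.6% in late G1 (48.1 to 61.0), 65.02% in S phase (58.9 to 70.8) and 58.3% in G2/M (52.3 to 64.2). Among regions without H3K27me3 in any fraction these shares were 69.1%, 50%, 63.7% and 51.1%.

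**Figure D1:**
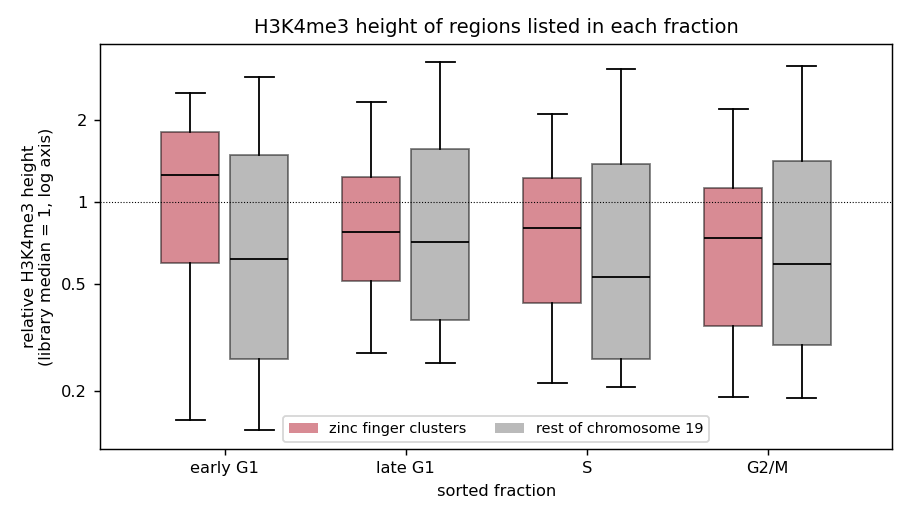
Relative H3K4me3 height (log axis, library median = 1) of the regions listed in each sorted fraction, for the zinc finger clusters (red) and the rest of chromosome 19 (grey). Boxes give quartiles and median, and whiskers the percentiles 5 and 95; the members' median is 1.25 in early G1 and between 0.735 and 0.802 in the other fractions.

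With the set narrowed to regions listed in all 4 fractions, the members' median stood above that of the rest in early G1 and below it afterwards. After early G1 the intervals of members and rest overlapped. The members' medians were 1.48 in early G1 (95% interval 1.37 to 1.65), 0.863 in late G1 (0.755 to 1.03), 0.929 in S phase (0.854 to 0.973) and 0.883 in G2/M (0.813 to 0.952). Those of the rest were 0.915 (0.855 to 1.01), 1.02 (0.920 to 1.11), 0.988 (0.898 to 1.10) and 1.03 (0.913 to 1.09). On the deposited scale these members had median heights of 199.8, 56.6, 71.6 and 66.96, against 123, 67.0, 76.1 and 77.8 for the rest. The whole early G1 list was tall on that scale: its median height was 63.8, while the late G1, S phase and G2/M lists had medians of 36.8, 37.1 and 34.5. The relative height removes this common factor, and a difference in shape between libraries was not tested.

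Late G1 was set against early G1, region by region, as the log2 ratio of relative heights. A ratio exists for the 223 members listed in both, and 115 have none: 42 were listed in early G1 without late G1, 17 in late G1 without early G1, and the others in neither. In the rest of chromosome 19, 228 regions were listed in early G1 without late G1 and 221 the other way. The members' median log2 ratio was -0.64 (95% interval -0.75 to -0.58, quartiles -1.05 and -0.14), against 0.11 for 933 regions of the rest and 0.06 for 15450 regions of chromosomes 1 to 21 outside the clusters. Values below 0 were found in 175 of 223 members (78.5%), against 424 of 933 (45.4%) in the rest. Members lower in late G1 by more than 2-fold numbered 63 (28.3%, 22.4 to 34.6), against 49 (5.25%) of the rest, where 5.37% of all regions on chromosomes 1 to 21 passed that fold. Members higher by more than 2-fold numbered 13 (5.83%), against 140 (15.0%) of the rest and 15.4% of all regions. The median over all regions outside the clusters, taken chromosome by chromosome, ran between -0.10 and 0.35.

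The lower late G1 height was found in 5 of the 6 clusters. Clusters 1 and 2 had the lowest medians, -1.05 (19 members) and -1.12 (46 members), and 11 and 25 of their members were lower by more than 2-fold. All 19 ratios of cluster 1 lay below 0. Clusters 4, 5 and 6 had medians of -0.63, -0.58 and -0.65 (20, 40 and 58 members), with 5, 5 and 14 members lower by more than 2-fold. Cluster 3 had a median of -0.05 over 40 members, with an interval from -0.44 to 0.29, and held 3 members lower and 5 higher by more than 2-fold. Without the 8 ratios of the 200 kb bin named above, whose median was 0.81, the other 32 ratios of cluster 3 had a median of -0.18. With clusters 1 and 2 left out, the members' median was -0.57, and 27 of 158 (17.1%) were lower by more than 2-fold. With cluster 3 left out, the median was -0.73 and the count 60 of 183 (32.8%).

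**Figure D2:**
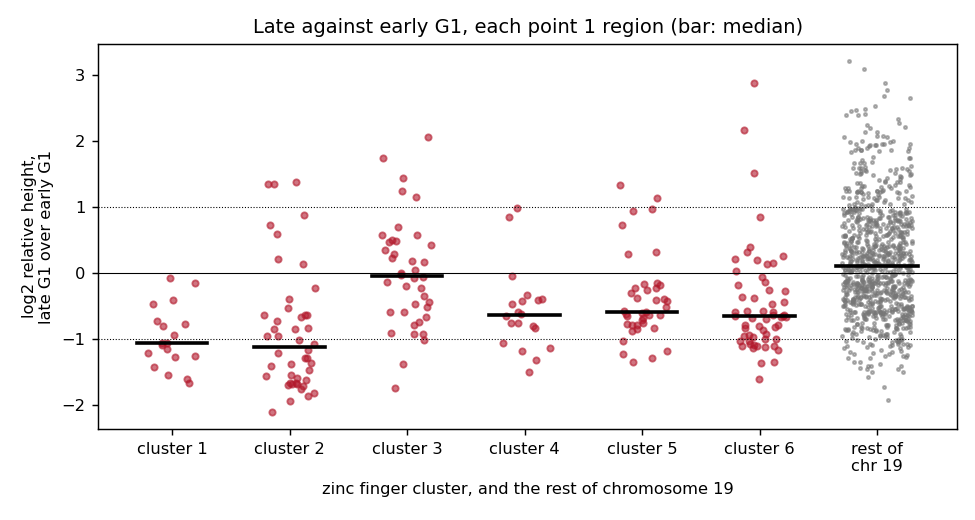
Log2 ratio of relative H3K4me3 height, late G1 over early G1, for each region of the 6 clusters (red) and of the rest of chromosome 19 (grey); each point is 1 region, bars are medians and dotted lines mark 2-fold. The points of clusters 1 and 2 centre on -1.05 and -1.12, those of cluster 3 on -0.05, and those of the rest on 0.11.

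Among members listed in all 4 fractions, the clusters also stood at different heights. Clusters 1 to 6 had median relative heights of 0.951, 1.63, 1.23, 1.23, 1.52 and 1.83 in early G1, and of 0.552, 0.636, 0.908, 0.741, 1.08 and 1.17 in late G1. Cluster 2 was thus second to cluster 6 in early G1 and second from the bottom in late G1. In G2/M the medians were 0.552, 0.649, 0.952, 0.758, 0.970 and 1.11, close to the late G1 values. The tallest member of cluster 1 lay at 11708126 to 11709225, with deposited heights of 257, 94.6, 106 and 176 from early G1 to G2/M. That of cluster 2 lay at 19779176 to 19781025, with 275, 114, 161 and 193. In cluster 4 it lay at 44616276 to 44618375, with 307, 89.1, 106 and 66.01, and in cluster 5 at 52772676 to 52774250, with 460, 169, 195 and 155. On the relative scale, the cluster 4 and 5 members were highest in early G1 (2.28, 1.36, 1.37 and 0.871 in cluster 4, and 3.42, 2.58, 2.53 and 2.05 in cluster 5). The cluster 1 and 2 members were highest in G2/M (1.91, 1.44, 1.37 and 2.33 in cluster 1, and 2.04, 1.74, 2.09 and 2.55 in cluster 2). All 4 overlapped H3K27ac in early G1, where 44.4% of members listed in all 4 fractions and 45.3% of such regions of the rest did. That share rose with H3K4me3 height in members and rest alike, as given below.

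The 5 members with the lowest ratio all lay in cluster 2. The region at 20011526 to 20013025 had heights of 293, 33.4, 70.6 and 49.8 in early and late G1, S phase and G2/M, a log2 ratio of -2.10. It was listed in every fraction, with widths of 1500, 1100, 1150 and 950 bp, and overlapped H3K27ac in early G1, late G1 and G2/M. The region at 21541651 to 21542975 had heights of 313, 39.8, 83.4 and 68.5 (-1.94). The early G1 library was thus the high one at both places, and the other 3 libraries lay within a narrower span. At 21182626 to 21183600 the heights were 188, 25.2, 51.9 and 34.5 (-1.86), and at 20149301 to 20150425 they were 260, 36.002, 63.6 and 72.5 (-1.82). The fifth, at 23940801 to 23941725, had 163, 23.4, 19.3 and 21.3 (-1.76). None of the 5 overlapped H3K27me3 in any fraction, which also held for 326 of all 338 members (96.4%).

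A few members went the other way. The region at 56652351 to 56653550 in cluster 6 had heights of 64.2, 230, 203 and 267, a log2 ratio of 2.88, and overlapped H3K27ac in late G1 alone. Also in cluster 6, the region at 58837526 to 58839250 had heights of 215, 470, 326 and 521 (2.17) and was the tallest member of its cluster by mean relative height. In both, early G1 was the lowest of the 4 libraries on the deposited scale. The region at 57106226 to 57107525 had 167, 233, 128 and 230 (1.52). The other 2 of the 5 highest ratios were short, low regions of cluster 3. At 36648926 to 36649475 the heights were 18.4, 37.4, 33.6 and 33.96 (2.06), and at 36753026 to 36753500 they were 19.4, 31.7, 26.4 and 30.8 (1.75). Their early G1 heights lie close to 18.8, the 5th percentile of the early G1 list.

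Pooled over the clusters, the members' heights, like those of the rest of chromosome 19, shifted little between late G1, S phase and G2/M. For S against late G1 the members' median log2 ratio was 0.00, against -0.05 for the rest. Of 223 members, 3 (1.35%) were lower and 2 (0.897%) higher by more than 2-fold, where 3.08% and 0.769% of all regions passed. For G2/M against S the medians were -0.09 and 0.03. Of 231 members, 3 (1.30%) were lower and 4 (1.73%) higher, where 1.3% and 4.98% of all regions passed. The clusters did not all move alike. Clusters 1 to 6 had medians of 0.12, 0.22, -0.30, -0.02, 0.10 and 0.02 for S against late G1. Their medians for G2/M against S were 0.29, -0.26, 0.13, -0.02, -0.18 and -0.15. For early G1 against G2/M the members' median was 0.73, against -0.07 for the rest. Of 237 members, 69 (29.1%) were higher by more than 2-fold, against 52 of 1014 (5.13%) in the rest and 5.44% of all regions, and 13 (5.49%) were lower, against 14.9% in the rest and 13.5% of all regions. This step and late against early G1 share the single early G1 library, so they are not independent of each other.

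The late to early G1 ratio was also taken within bands of height. Regions listed in all 4 fractions were placed in 3 bands by mean relative height, with bounds at 0.649 and 1.55 that divide the rest of chromosome 19 into equal parts. That mean holds the early and late G1 heights that form the ratio, so band and ratio are not independent. A difference between bands may thus come in part from how the bands were cut. In the middle band the median log2 ratio of late to early G1 was -0.76 for 128 members, against 0.08 for 298 regions of the rest, and 43 members (33.6%) were lower by more than 2-fold, against 20 (6.71%). In the low band the medians were -0.46 for 47 members and 0.20 for the rest. In the high band they were -0.23 for 41 members and -0.02 for the rest, and 14.6% of members were lower by more than 2-fold, against 3.69%. Members that overlapped H3K27ac in early G1 had a median of -0.79 (97 members), against -0.16 for such regions of the rest (414). Members without that overlap had a median of -0.59 (126), against 0.32 for the rest (519). Among regions without H3K27me3 in any fraction the medians were -0.65 for 218 members and -0.05 for 785 regions of the rest.

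The late to early G1 ratio differed between the inner and outer sides of the cluster bounds. More than 500 kb inside a bound the median was -0.68 (93 members), at 250 to 500 kb inside it was -0.75 (57), and within 250 kb inside it was -0.46 (73). Within 250 kb outside a bound it was -0.21 (75 regions), and at 250 to 500 kb and 500 to 1000 kb outside it was 0.12 in both (71 and 106 regions). The share lower by more than 2-fold was 26.9%, 33.3% and 26.03% in the 3 inner bins, from the deepest to the bound. It was 6.67% within 250 kb outside (5 of 75 regions, against 19 of 73 within 250 kb inside), and 4.23% and 2.83% in the next 2 bins outwards. The 2 members nearest to each bound on its inner side, 24 in all, had a median of -0.74 over the 16 with a ratio, with a range from -1.76 to 0.99. The 24 regions nearest to a bound on its outer side had a median of -0.57 over 14 ratios, with a range from -1.23 to 0.61. Not all of these lay close to a bound. Distances ran from 0.375 to 158 kb on the inner side and from 0.275 to 318 kb on the outer side. The outer region with the ratio of 0.61 lay 312 kb from its bound. The ranges of these nearest regions overlapped. The distance bins were chosen after the data were seen. Clusters 1 and 4, of 1 and 0.7 Mb, are too short to hold a member of the deepest bin. The inner bins thus differ in which clusters they hold.

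**Figure D3:**
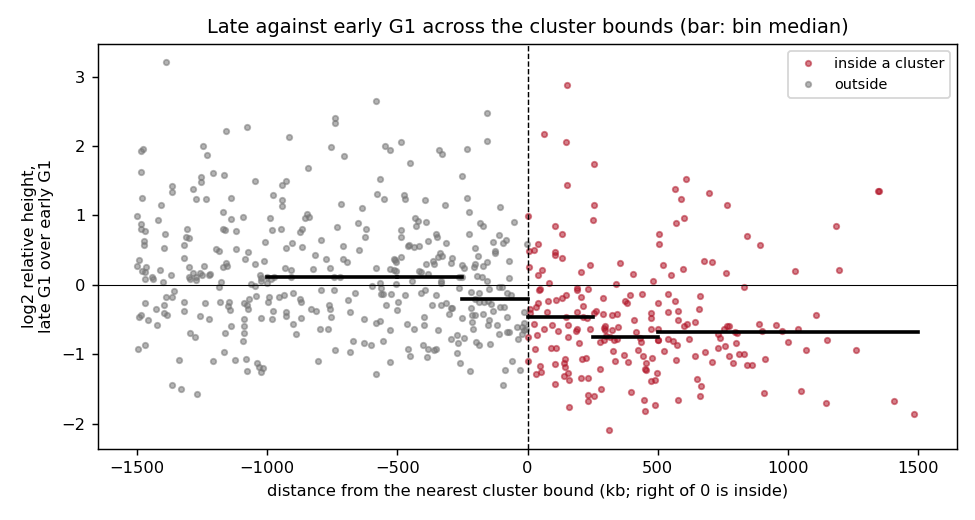
Log2 ratio of relative H3K4me3 height, late G1 over early G1, by distance from the nearest cluster bound in kb, with regions inside a cluster (red) right of 0 and regions outside (grey) left of it. Bars are bin medians, -0.46 within 250 kb inside and -0.21 within 250 kb outside; the bar of the innermost bin covers all members deeper than 500 kb, some of which lie beyond the axis.

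Windows of 1 Mb, also added after the data were seen, place the clusters in the genome. Of 700 windows with at least 8 regions with a ratio, the 3 with the lowest median log2 ratio lay in cluster 2: from 21000001 to 22000000 (-1.51, 12 regions), from 20000001 to 21000000 (-1.45, 12 regions) and from 23000001 to 24000000 (-1.16, 9 regions). Counted from the lowest, the window from 58000001 to 59000000 in cluster 6 was number 10 (-0.74), with 36 members among its 42 regions, and the window from 53000001 to 54000000 was number 15. Of the 9 windows made up mostly of members, 5 were among the 25 lowest, and the one in cluster 3 from 37000001 to 38000000 was number 316 (-0.03). Windows outside the clusters, none of them with a member, took places 4 to 9, so low ratios were not confined to the clusters.

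Members were also widest in early G1. The summed listed width of a member had medians of 1025, 775, 875 and 750 bp in early and late G1, S phase and G2/M, against 750, 650, 575 and 600 bp in the rest of chromosome 19. Among regions listed in all fractions the medians were 1125, 850, 987.5 and 887.5 bp for members, against 975, 925, 1025 and 925 bp for the rest. In this set 181 of 216 members (83.8%) had a smaller width in late G1 than in the early G1 list, with a median difference of -300 bp, against 533 of 894 (59.6%) and -75 bp in the rest. Over chromosomes 1 to 21 outside the clusters, 10129 of 14413 regions (70.3%) were narrower, with a median difference of -175 bp, nearer to the members than the rest of chromosome 19 was. Early G1 exceeded G2/M by a median of 250 bp in members, 75 bp in the rest and 150 bp over chromosomes 1 to 21 outside the clusters. The greater width of members did not hold once short peaks were left out. Among H3K4me3 peaks of at least 500 bp the members' median was above the rest by 25 bp in early G1 and below it in the other fractions (-212.5, -100 and -100 bp).

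**Figure D4:**
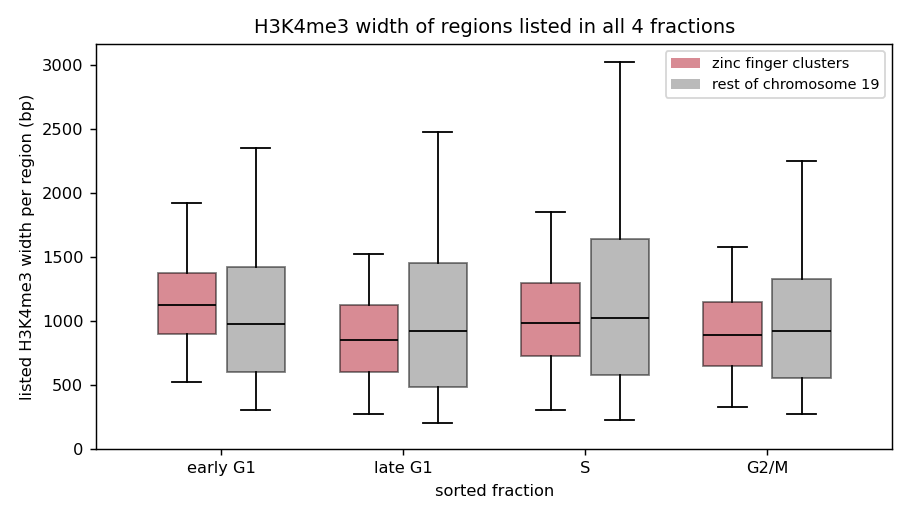
Summed listed H3K4me3 width per region in bp, for regions listed in all 4 sorted fractions, in the zinc finger clusters (red, 216 regions) and the rest of chromosome 19 (grey, 894 regions). Boxes give quartiles and median, and whiskers the percentiles 5 and 95; the members' median is 1125 bp in early G1 and 850 bp in late G1.

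The widest member lay at 36704751 to 36707450 in cluster 3, with widths of 2325, 2175, 2475 and 2275 bp and heights of 403, 222, 253 and 275, and it overlapped H3K27ac in every fraction. Next came the regions at 58897276 to 58899625 in cluster 6 (2250, 2200, 2200 and 1775 bp) and at 37340376 to 37342550 in cluster 3 (2150, 1925, 2150 and 2025 bp). The cluster 6 region had heights of 399, 90.6, 140 and 103, and its widths in early and late G1 were close while its heights were not.

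The H3K27ac share of the rest of chromosome 19 lay within the members' interval in every fraction. Of members listed in each fraction, 107 of 265 overlapped an H3K27ac peak of that fraction in early G1 (40.4%, 95% interval 34.4 to 46.6), 62 of 240 in late G1 (25.8%, 20.4 to 31.9), 16 of 263 in S phase (6.08%, 3.52 to 9.69) and 36 of 276 in G2/M (13.0%, 9.31 to 17.6). The rest of chromosome 19 had 40.4%, 23.4%, 4.72% and 10.3%. The H3K27ac lists themselves held 30168, 32521, 10268 and 19525 peaks, so the lower share in S goes with a shorter list. With the lists of each mark cut to equal numbers of peaks, the members' shares were 19.6%, 13.5%, 6.35% and 9.41%. Those of the rest were then 19.3%, 11.8%, 5.02% and 6.68%. The cause of the differences that remain between fractions was not tested. Within bands of H3K4me3 height the early G1 shares were 25.5%, 43.0% and 70.7% for low, middle and high members, against 27.2%, 40.3% and 68.5% for the rest. Over all fractions, 123 members (36.4%) overlapped H3K27ac at least once, against 554 (30.6%) of the rest, and 12 members did so in all 4, against 50 regions of the rest. These counts take H3K27ac in a fraction whether or not H3K4me3 was listed there. Among regions with H3K4me3 in all fractions, 11 of 216 members and 42 of 894 regions of the rest had H3K27ac in all 4.

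The clusters were not alike in H3K27ac. In early G1, 32 of 49 listed members of cluster 2 overlapped it (65.3%, 95% interval 50.4 to 78.3), and in late G1 14 of 51 did (27.5%, 15.9 to 41.7). In cluster 3 the shares were 41.3% and 35.6%, and in cluster 4 they were 8.00% (2 of 25 members) and 4.55%. Clusters 1, 5 and 6 had 30.0%, 36% and 41.5% in early G1. The members with H3K27ac in all fractions that were tallest, beside 36704751 in cluster 3, lay at 58398576 to 58400525, 37018251 to 37020325, 52429976 to 52431425 and 58608726 to 58609625. At 58398576 the heights were 469, 132, 246 and 167, and at 52429976 they were 205, 166, 117 and 198.

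**Figure D5:**
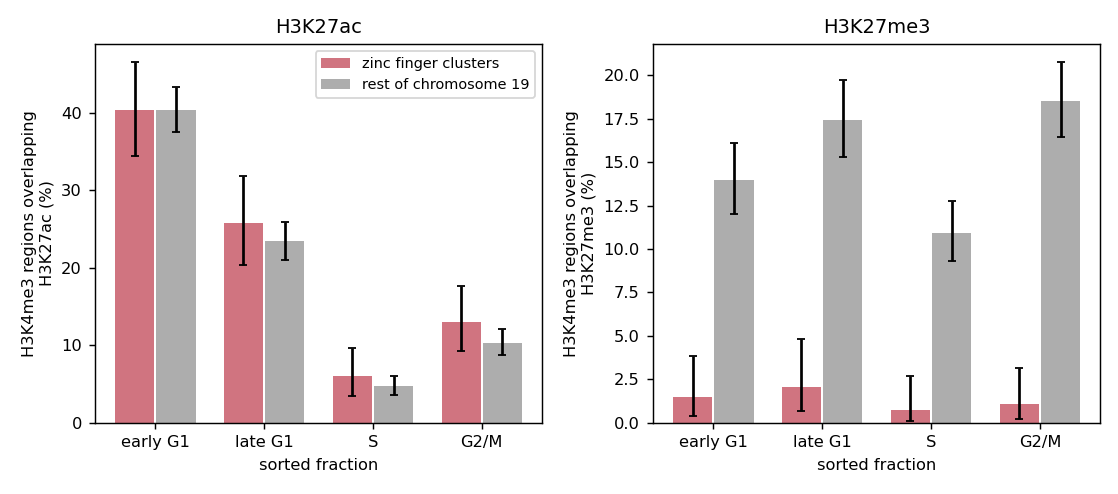
Share of H3K4me3 regions listed in each sorted fraction that overlap an H3K27ac peak (left) or an H3K27me3 peak (right) of the same fraction by at least 1 bp, in percent, for the zinc finger clusters (red) and the rest of chromosome 19 (grey). Error bars are exact Clopper-Pearson 95% intervals for counting error; H3K27ac shares lie close together (40.4% in both groups in early G1), while H3K27me3 shares are 1.51% and 13.95% in early G1.

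H3K27me3 was rare at members. Overlap was found at 4 of 265 in early G1 (1.51%, 95% interval 0.413 to 3.82), 5 of 240 in late G1 (2.08%, 0.680 to 4.79), 2 of 263 in S phase (0.760%, 0.0922 to 2.72) and 3 of 276 in G2/M (1.09%). The rest of chromosome 19 had 13.95%, 17.4%, 10.9% and 18.5%. Over all fractions 12 members (3.55%) overlapped H3K27me3 at least once, against 365 (20.2%) of the rest, and 1 did so in all 4, against 191. These counts take H3K27me3 in a fraction whether or not H3K4me3 was listed there. Among regions with H3K4me3 in all fractions, 1 of 216 members and 76 of 894 regions of the rest had H3K27me3 in all 4. The member with H3K27me3 in all 4 lies near the lower bound of cluster 4, at 44302976 to 44303275. It had low H3K4me3 heights of 18.0, 17.5, 22.01 and 33.7 and widths of 100 to 300 bp.

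The scarcity of H3K27me3 held for the clusters as a whole and not at H3K4me3 regions alone. The clusters held 1.18, 4.45, 0.672 and 1.85 H3K27me3 peaks per Mb in early and late G1, S phase and G2/M, against 23.3, 52.6, 19.5 and 40.6 in the rest of the chromosome. Covered length was 0.643, 1.64, 0.248 and 0.569 kb per Mb in the clusters, against 20.99, 42.3, 15.4 and 30.1 kb per Mb in the rest. The peaks that were there had median heights of 24.03, 22.3, 17.9 and 17.2, against 29.4, 24.3, 20.5 and 19.001. H3K27ac peaks stood at 14.96, 10.0, 2.27 and 5.55 per Mb in the clusters, against 22.3, 14.9, 3.11 and 7.01. H3K4me3 peaks stood at 23.3, 24.1, 24.5 and 27.5 per Mb, against 27.5, 30.1, 32.2 and 32.9. Of these marks, H3K27me3 was thus the one with the widest gap between the clusters and the rest of the chromosome.

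H3K4me1 was listed at 1 member, in S and in G2/M, and at 0 members in early and late G1. In the rest of chromosome 19 it was listed at 6, 3, 19 and 8 regions. The H3K4me1 lists were short, with 22 to 141 peaks on chromosome 19.

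Members listed in only some fractions were mostly low. The tallest listed in early G1 alone lay at 12075876 to 12076450 in cluster 1 (height 58.5). The tallest in late G1, S phase and G2/M alone had heights of 18.2, 20.1 and 22.5, against 5th percentiles of 15.98, 15.2 and 13.9 in those lists. An exception was the member at 36821576 to 36822725 in cluster 3, with heights of 166, 38.3 and 28.5 in early G1, S and G2/M and no late G1 peak, which overlapped H3K27ac in early G1. The member at 12035826 to 12036725 had heights of 108, 24.6 and 16.1 in early G1, late G1 and G2/M and was missing from S. The tallest member missing from early G1 alone, at 36736751 to 36737225 in cluster 3, had heights of 23.7, 22.1 and 58.7 and overlapped both H3K27ac and H3K27me3 in late G1 and G2/M. Duplicated genes and their repeats can share reads, and the sources used here do not say how reads with several matches were placed, so heights inside the clusters are uncertain to that extent.

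The 4C libraries, whose viewpoints lie on other chromosomes, gave no common difference for the clusters. The clusters hold 3188 restriction sites and the rest of chromosome 19 holds 8353. From the GATA6 viewpoint, 9.47%, 10.98%, 12.2% and 5.77% of cluster sites had a read in early and late G1, S phase and G2/M, against 11.4%, 13.0%, 15.3% and 7.40% of the other sites, lower in all 4 libraries. From the SOX17 viewpoint the shares were 10.04%, 7.34%, 9.003% and 6.96% in the clusters, against 8.56%, 7.23%, 9.24% and 4.32%, higher in 3 of 4. Reads per site ran from 3.04 to 6.49 in the clusters against 4.61 to 8.99 elsewhere for GATA6, and from 2.19 to 5.56 against 1.66 to 3.32 for SOX17. The libraries held 7491195 to 17076409 reads, and these are PCR products without molecular identifiers.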

How the data were processed

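Coordinates are read as hg19, 1-based. The tool Bowtie 0.12.7 and the genome builds mm9 and hg19 appear, with no role stated, per the submitters' processing notes. Which program called the peaks, with what settings or input, and how reads with several matches were handled, was not given in the sources used here. Input libraries (4) are not analysed here. Each of the 16 ChIP lists came from 1 library. The authors deposited a signal per peak, used as its height, and a negative score per peak, more negative for taller peaks, used in alternatives alone. The deposited 4C counts are whole reads per restriction site. The number of reads behind the ChIP lists is unknown here, and no per-sample column was left unused (0). Groups follow the labels.

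H3K4me3 peaks of the 4 fractions were merged where they overlapped or touched. A region's height is its tallest peak and its width the summed listed width. Marks overlapped when they shared at least 1 bp. Heights were compared on chromosomes 1 to 21. A ratio past 2-fold counts as called. Shares carry exact Clopper-Pearson 95% intervals and medians order-statistic intervals; both treat regions as independent, although neighbours are not, and cover counting error only. The ratio step was tested on simulated data. Python 3.11.15, numpy 2.4.6, pandas 2.3.3, scipy 1.17.1 and matplotlib 3.10.9 were used.

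The clusters, lists and rules were chosen with earlier results of these data known. Named regions are the tallest member of each cluster, the 3 widest, the 5 highest and 5 lowest late to early G1 ratios, members with a second mark in all fractions (up to 5 for H3K27ac and 8 for H3K27me3), the tallest member listed in or missing from 1 fraction, and the regions nearest to each bound. Not all are described. Alternatives covered stricter and equal-length lists, width, overlap, merging, height scale, second marks, cluster bounds, the comparison regions and the leaving out of clusters 2 and 3. Cell identity was not checked against marker genes, since no annotation of hg19 was used. RefSeq promoters (GRCh38.p14) were matched by name.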

Additional observations from a re-analysis of the deposited data

How the results depend on the processing

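Across 15 settings, 230 values of 30 member-minus-rest results were recomputed, and 212 kept their sign. Some of these could not change, so their kept sign is no check. Rescaling to chromosome 19 moves members and rest alike, and only the share lower by more than 2-fold could differ there. Ranking within a library leaves the shares of members above the median height of the rest as they were. With the top 50% of each list by score, the difference in the share listed in all 4 fractions was 3.52 percentage points (14.5 as reported), the width differences in early and late G1, S phase and G2/M were 0, -187.5, -150 and -100 bp (275, 125, 300 and 150 bp as reported), and those of the H3K27me3 share were -4.68, -10.06, -6.30 and -9.00 points (-12.4, -15.3, -10.2 and -17.4 as reported). With H3K4me3 peaks of at least 500 bp, the share listed in all fractions differed by 1.24 points, widths by 25, -212.5, -100 and -100 bp, and H3K27me3 shares by -8.41, -11.4 and -11.02 points in early G1, late G1 and G2/M. For regions listed in all fractions alone, H3K27me3 shares differed by -12.3 points in late G1 and -11.6 in G2/M. Without regions that carry H3K27me3, the height differences (log2) were 0.69 in early G1 (1.02 as reported), -0.015 in late G1 (0.12) and 0.034 in G2/M (0.31). Members above the G2/M median of the rest then exceeded 50% by 1.13 points (8.33), and the late to early G1 difference was -0.60 (-0.75). Against the rest of chromosomes 1 to 21, H3K27me3 shares differed by -20.6, -20.8 and -15.7 points in early G1, late G1 and S. Without cluster 2, the share lower by more than 2-fold in late G1 exceeded that of the rest by 16.2 points (23.0). Without cluster 3, members above the G2/M median exceeded 50% by 14.4 points. The stricter lists by construction drop short and weak peaks; the cause of the other moves was not tested. Merging on 1 shared bp gave 344 members, merging within 500 bp 273, and bounds moved 100 kb inwards 292. The merging on 1 shared bp and the leaving out of clusters were added after the data were seen. No paired analysis was possible because each mark and fraction has 1 library. The depth of the ChIP libraries is unknown here, so an absent peak may be one below the caller's limit, and every late to early G1 ratio rests on 1 library of each fraction.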
